A study of Mus musculus with 7 samples.

Results

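The well-expressed long intergenic noncoding RNAs (lincRNAs) of the lung were compared between mice given bleomycin alone (BLM, n = 4) and mice given bleomycin and then hyperbaric oxygen (BLM+HBO, n = 3). A gene was a member when GENCODE vM21 gave it the type lincRNA and its mean over all 7 mice was at least 2 CPM, the count per 1000000 reads of the library total. H19 and Meg3 were left out by the rule. This chose 183 of the 5614 lincRNA genes in the table, while 2932 of those genes had at least 1 read. The members were thus selected on their mean level over both groups, and that level is a description and not a finding.

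All 7 animals were male C57BL/6 mice of 6 to 8 weeks. Bleomycin, a DNA-cleaving antibiotic used to bring about lung injury and scarring, had been given to all of them. On day 7 they were divided, and the BLM+HBO mice then breathed oxygen in a chamber at 2.5 atmospheres absolute for 90 min on each of 14 consecutive days. The sources differ on whether BLM mice spent the same time in the chamber without pressurized oxygen (sample records) or stayed untreated (Supplementary methods). Lungs were collected on day 21, and RNA of the right lobes was sequenced with 1 library per mouse. No mouse without bleomycin was part of this comparison, and whole lobes mix all lung cell types, so fewer cells of a type and less RNA per cell cannot be told apart.

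LincRNAs are transcripts that lie between protein-coding genes and are not known to be translated. Many are spliced, capped and polyadenylated like messenger RNAs but are present at lower levels, and many stay in the nucleus. Some act as scaffolds of nuclear bodies, some hold microRNAs or small nucleolar RNAs in their introns or exons, some influence a gene beside them, and for most no function is known.

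Libraries summed to between 18157161 and 26365969 reads in genes. The lowest count of a member in a mouse was 4 and the highest 73177, and intervals drawn from such counts would cover counting error only. On the first principal component (37.3% of the variance of all genes) BLM+HBO 2 lay at -0.996, next to BLM 4 at -6.08 and BLM 3 at -6.62, while BLM+HBO 1 and BLM+HBO 3 lay at 54.8 and 37.8. The counting did not use strand. In the annotation, 43 members shared exon bases with another gene and 23 lay within the body of a protein-coding gene, so their counts are uncertain. Of 121 members that were matched to RefSeq (GRCm38.p6), 108 were listed there as lncRNA, 3 as transcribed pseudogenes and 10 as protein-coding, among them Zfp469, 1810058I24Rik, Tmem250-ps and Gm7932.

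Among the microRNA hosts in the group was A230057D06Rik, one of the members higher in BLM+HBO. The mature sequences are shown for 3 hosts because each carries several microRNAs with a common seed, the bases that pair with targets. They are RefSeq sequences on GRCm38.p6, with bases 2 to 8 in capitals. A230057D06Rik (chr7:61704519-61928690, minus strand) spans the miR-344 cluster, in which 4 of the 5′ arms share the seed GUCAGGC.
mmu-miR-344-5p: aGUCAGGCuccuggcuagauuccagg
mmu-miR-344b-5p: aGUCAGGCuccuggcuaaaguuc
mmu-miR-344c-5p: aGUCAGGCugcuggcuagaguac
mmu-miR-344d-3-5p: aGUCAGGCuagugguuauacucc
6720427I07Rik (chr13:48532905-48546500, minus strand) holds 3 let-7 hairpins, a family that restrains growth-promoting messages, and their 5′ arms share the seed GAGGUAG.
mmu-let-7a-5p: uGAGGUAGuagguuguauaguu
mmu-let-7d-5p: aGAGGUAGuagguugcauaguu
mmu-let-7f-5p: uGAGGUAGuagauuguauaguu
Mir17hg (chr14:115042879-115046727, plus strand) is the host of the miR-17-92 cluster, which promotes proliferation, and 2 pairs of its microRNAs share a seed.
mmu-miR-17-5p: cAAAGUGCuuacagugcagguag
mmu-miR-20a-5p: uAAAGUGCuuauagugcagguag
mmu-miR-19a-3p: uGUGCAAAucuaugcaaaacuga
mmu-miR-19b-3p: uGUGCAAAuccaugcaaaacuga

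In the comparison of the groups, more members were higher than lower in BLM+HBO, but none passed the adjusted test. With edgeR's quasi-likelihood test, fitted on all 17465 genes that passed the filter on low counts, all 183 members were tested. The thresholds of the study were a fold change above 1.5 and an unadjusted P below 0.05, and past both, 19 members (10.4%) were higher in BLM+HBO, where 3.40% of all genes tested were. At the same thresholds 6 members (3.28%) were lower, where 2.89% of all genes tested were. Without the fold threshold, 21 members were higher at an unadjusted P below 0.05 (5.11% of all genes) and 8 were lower (5.54% of all genes). With a fold change above 2, 3 members were higher and 4 lower, where 1.59% and 1.32% of all genes tested were. At an unadjusted P below 0.01 with the same fold change above 1.5, 3 were higher and 2 lower, where 0.916% and 0.910% of all genes were. Single mice moved these counts: without BLM 1, BLM 2 or BLM+HBO 3 there were 10, 9 and 11 higher members, where 2.34%, 2.56% and 2.87% of all genes tested were. Without BLM+HBO 2 there were 25 higher and 10 lower members, where 5.29% and 5.41% of all genes were.

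After Benjamini-Hochberg adjustment over all genes tested, 0 members had an adjusted P below 0.05 by edgeR, and 0% of all genes did. The lowest adjusted P was 0.423, with 29 members at an unadjusted P below 0.05. Limma-trend also called 0 members, and DESeq2 called 1, Gm20186 (adjusted P = 0.0492). The share of all genes that passed adjustment in these fits is not given here, so these counts have no background. The words higher and lower below therefore refer to the unadjusted thresholds.

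The shift was spread over many members. The log2 fold change was above 0 in 139 of 183 members (76.0%), against 51.2% of all genes tested, and its median was 0.25 (quartiles 0.01 and 0.51), against 0.01 over all genes. Every BLM+HBO mouse was above every BLM mouse in 15 members (8.20%), where 4.05% of all genes were so separated, and below every BLM mouse in 7 (3.83%), where 4.72% of all genes were. The 116 members at 2 to 5 CPM had a median of 0.30, the 34 at 5 to 10 CPM 0.14 and the 33 at 10 CPM or more 0.14.

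**Figure D1:**
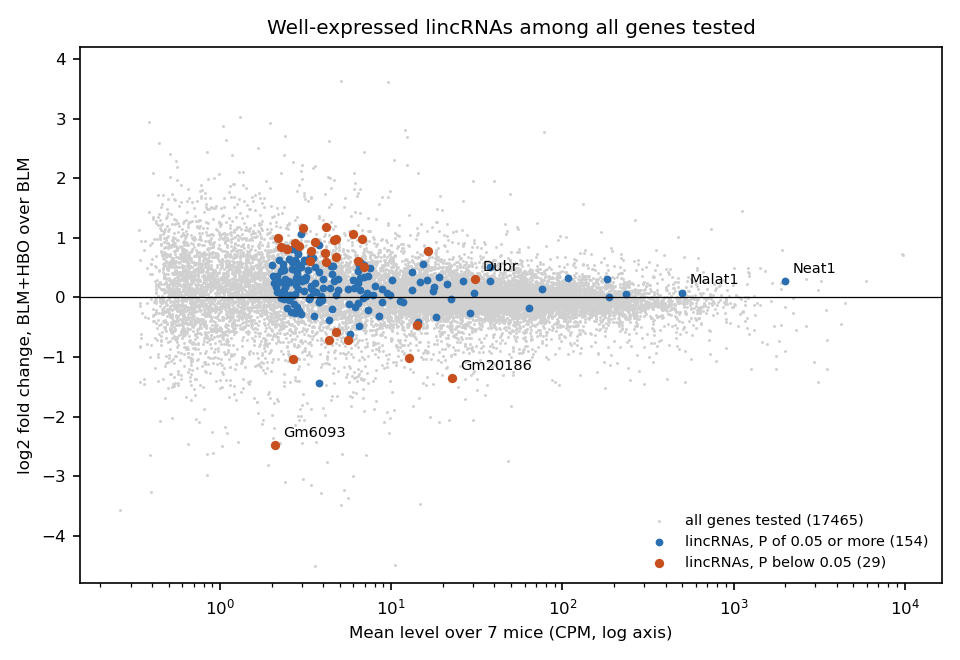
Log2 fold change of BLM+HBO over BLM (y axis) against mean CPM over the 7 mice (x axis, log scale) for all 17465 genes tested in grey, the 154 lincRNAs at P of 0.05 or more in blue and the 29 at unadjusted P below 0.05 in orange. Most blue and orange points lie above 0, and Gm6093 at -2.49 and Gm20186 at -1.35 are the lowest labelled points.

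The rule itself averaged the groups. Of the 183 members, 160 had a mean of at least 2 CPM in both groups, 20 only in BLM+HBO and 3 only in BLM. Among the members past the thresholds, 9330175E14Rik, Gm16046, Gm26797, Gm44226 and D030018L15Rik reached 2 CPM only in BLM+HBO, where they were higher, and 1200007C13Rik and Gm6093 only in BLM. The choice by the higher mean favours these 7 members in the direction in which they differed. Choosing lincRNAs on the BLM mean alone gave 170, of which 119 were above 0, with a median of 0.16, 14 higher and 8 lower. Choosing them on the BLM+HBO mean alone gave 201, of which 160 were above 0, with a median of 0.28, 23 higher and 4 lower. In the same fit 3.40% of all genes tested were higher and 2.89% lower. Just inside the threshold were Carmn, Gm9949 and Gm6093 at 2.03, 2.03 and 2.06 CPM. Just outside were 5033430I15Rik at 1.997 CPM, Gm2682 at 1.99 and Eprn at 1.99.

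Per mouse, the members did not separate the groups cleanly. The median deviation of the members from their own mean, on the scale of log2 of CPM + 0.5, was -0.15 in BLM 1, -0.22 in BLM 2, 0.09 in BLM 3 and -0.05 in BLM 4. It was 0.21 in BLM+HBO 1, 0.03 in BLM+HBO 2 and 0.11 in BLM+HBO 3, so BLM 3 lay above BLM+HBO 2. BLM+HBO 1 had 134 of 183 members above their own mean and BLM 2 had 46. Protein-coding genes at 2 CPM or more had medians from -0.0029 to 0.0141 in the same libraries.

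**Figure D2:**
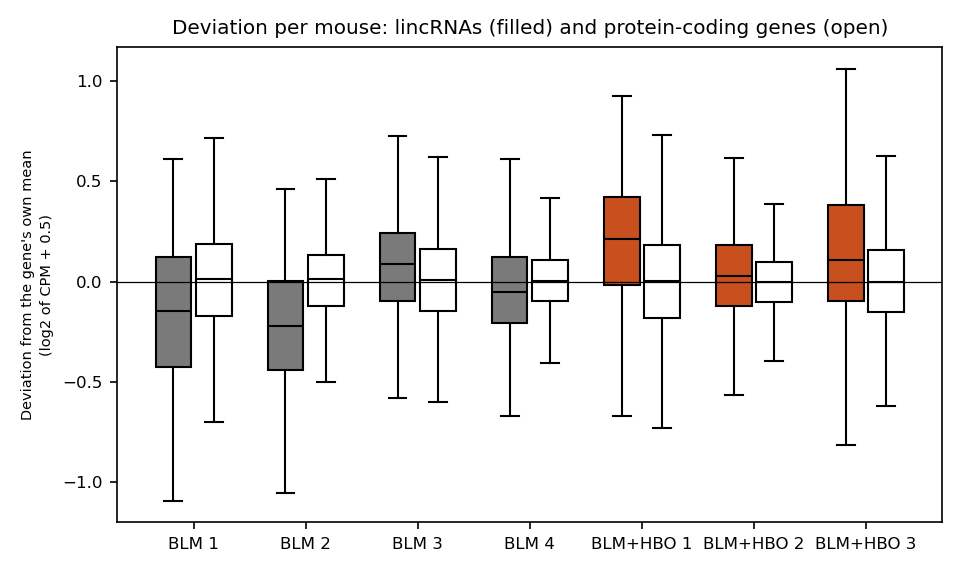
Deviation of each gene from its own mean over the 7 mice (y axis, log2 of CPM + 0.5) for each mouse, with boxes from the first to the last quartile, a line at the median and whiskers to 1.5 box lengths. Filled boxes are the 183 lincRNAs (grey BLM, orange BLM+HBO) and open boxes protein-coding genes at 2 CPM or more; the lincRNA median runs from -0.22 in BLM 2 to 0.21 in BLM+HBO 1.

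A similar shift was present in other noncoding classes at 2 CPM or more. The median log2 fold change was 0.25 over 145 antisense genes, 0.29 over 63 genes that GENCODE marks as to be experimentally tested (TEC) and 0.37 over 12 sense intronic genes. It was 0.14 over 130 processed transcripts, -0.07 over 226 processed pseudogenes and -0.01 over 13396 protein-coding genes. Protein-coding genes of a level like that of most members, 2 to 10 CPM, had a median of 0.09 over 2684 genes, with 7.19% higher and 4.51% lower at the thresholds. Medians of similar size were thus seen outside the lincRNAs, and no difference between classes was tested. In each library, the share of reads in sense intronic genes was 0.0154% to 0.0173% in BLM and 0.0188% to 0.0219% in BLM+HBO. The share in TEC genes was 0.07516% to 0.08653% in BLM and 0.08615% to 0.11% in BLM+HBO, and these ranges overlapped. The part of these shares in the result was not tested.

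**Figure D3:**
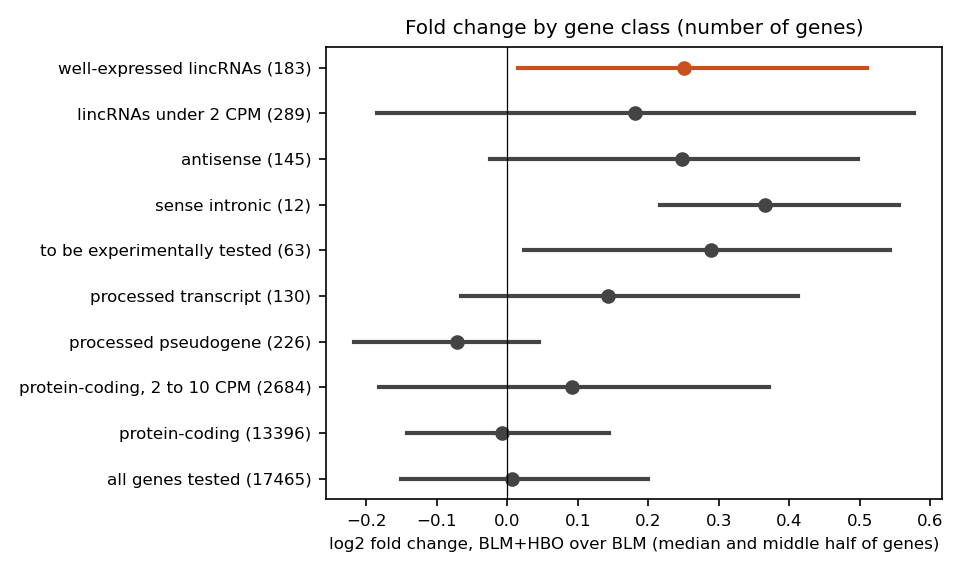
Median log2 fold change of BLM+HBO over BLM (points, x axis) and interquartile range (bars) by gene class at 2 CPM or more unless named otherwise, with the number of genes in brackets. The lincRNAs (orange, median 0.25) sit beside antisense genes (0.25) and TEC genes (0.29), while protein-coding genes sit at -0.01.

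The levels among the members were very uneven. The median member had 3.79 CPM, 6 members had 100 CPM or more, and the 10 most abundant took 77.2% of all member reads. Per kilobase of exon, Neat1 stood at 95.4 CPM, Malat1 at 71.1, AU020206 at 57.1, 2900097C17Rik at 48.0 and AW112010 at 46.8. All 10 of the most abundant members had overlapping groups.

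Neat1, the RNA around which nuclear paraspeckles assemble, took 45.5% of the member reads. The level was 935, 1228, 3020 and 2091 CPM in BLM 1 to 4 and 1379, 2479 and 2744 CPM in BLM+HBO 1 to 3. The highest mouse was thus a BLM mouse, and the range was 3.23-fold. The log2 fold change was 0.28 (SE 0.39, edgeR's quasi-likelihood test, adjusted P = 0.831).

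Malat1, a nuclear speckle RNA and neighbour of Neat1 on chromosome 19, moved differently between mice. It had 563, 477, 501 and 398 CPM in BLM 1 to 4 and 693, 452 and 393 CPM in BLM+HBO 1 to 3. BLM+HBO 1 was both the highest in Malat1 and the lowest of its group in Neat1. The log2 fold change of Malat1 was 0.08 (SE 0.20, edgeR, adjusted P = 0.918). Of 15 speckle and paraspeckle protein genes, 0 passed both thresholds in either direction, with Srsf7 (log2 fold change 0.24, SE 0.10) and Sfpq (-0.29, SE 0.10) at an unadjusted edgeR P below 0.05.

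2900097C17Rik, also known as Norad, binds Pumilio proteins and helps to keep chromosome number stable. It was the steadiest member, with 222 to 240 CPM in BLM and 237 to 246 CPM in BLM+HBO, a 1.11-fold range over 7 mice. The median range of the members was 2.22-fold. Its log2 fold change was 0.06 (SE 0.10). 1700020I14Rik, the conserved RNA also called Cyrano that promotes decay of miR-7, had 153 to 221 CPM in BLM and 172 to 215 CPM in BLM+HBO, with a log2 fold change of 0.00 (SE 0.15).

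AW112010, an RNA of activated immune cells from which a small protein has been reported to be made, had 26.8, 24.7, 37.8 and 38.4 CPM in BLM 1 to 4. In BLM+HBO 1 to 3 it had 61.3, 43.4 and 31.0 CPM. The groups overlapped through BLM+HBO 3, and the log2 fold change was 0.50 (SE 0.24, edgeR's adjusted P = 0.494). Gm42047 ranged from 43.1 to 175 CPM within BLM and from 83.1 to 188 CPM within BLM+HBO.

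**Figure D4:**
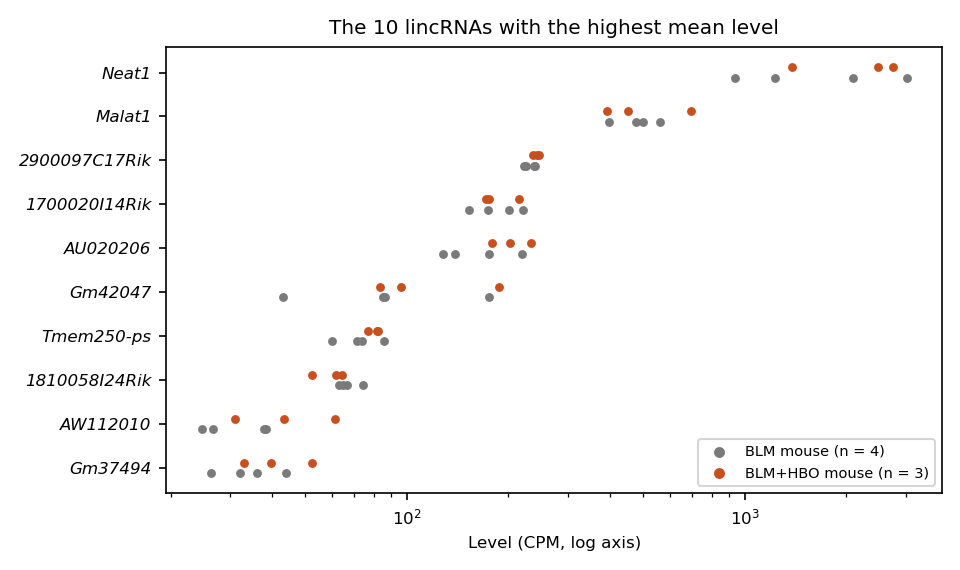
CPM (x axis, log scale) of the 10 lincRNAs with the highest mean level in each of the 4 BLM mice (grey) and 3 BLM+HBO mice (orange). The colours overlap in every row, and Neat1 spans 935 to 3020 CPM.

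Together the members took 0.330% to 0.533% of the reads in BLM and 0.437% to 0.518% in BLM+HBO, a log2 ratio of the mean shares of 0.25. These ranges overlapped. Without Neat1, a choice made after seeing the data, the members took 0.238%, 0.215%, 0.235% and 0.235% in BLM 1 to 4. In BLM+HBO 1 to 3 they took 0.294%, 0.253% and 0.240%, with a log2 ratio of 0.19. On library totals the groups did not overlap but nearly met, at 0.2377% in BLM 1 and 0.2399% in BLM+HBO 3. The TMM factors, not applied to these shares, were 0.9855 for BLM 1 and 1.013 for BLM+HBO 3. With library totals alone the median log2 fold change of all genes was 0.06.

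Of the 29 members at an unadjusted P below 0.05, 10 stayed below it when any 1 mouse was left out, and 19 did not. The same count over all genes is not given here. The 10 were 9330175E14Rik, 2810433D01Rik, 4933406B17Rik, Gm16046, A230057D06Rik and 9030404E10Rik among the higher and Gm20186, 1200007C13Rik, 2410004I01Rik and Gm6093 among the lower. Among them, 9330175E14Rik and Gm16046 reached 2 CPM only in BLM+HBO, and 1200007C13Rik and Gm6093 only in BLM. The choice of members thus favoured these in the direction in which they differed.

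The member with the lowest P was 9330175E14Rik (chr8:94422898-94435103, minus strand), which starts next to and opposite Nlrc5, the activator of MHC class I genes. It had 1.27, 1.52, 2.64 and 2.48 CPM in BLM 1 to 4 and 5.54, 4.07 and 3.75 CPM in BLM+HBO 1 to 3. All 3 BLM+HBO mice were above all BLM mice, and the log2 fold change was 1.17 (SE 0.32, edgeR's adjusted P = 0.423). Nlrc5 itself had a log2 fold change of 0.49 (SE 0.26), at an unadjusted P above 0.05, and its exons share 78 bases with the lincRNA.

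2810433D01Rik (chr11:102619796-102624416, minus strand) lies near Fzd2, a Wnt receptor gene. It had 1.87, 2.42, 2.86 and 3.16 CPM in BLM 1 to 4 and 6.07, 3.88 and 4.88 CPM in BLM+HBO 1 to 3, again without overlap. Its log2 fold change was 0.94 (SE 0.28, edgeR's adjusted P = 0.423). That of Fzd2 was -0.37 (SE 0.21), at an unadjusted P above 0.05. On the same chromosome, 333883 bases from 2810433D01Rik, the member 2410004I01Rik was lower in BLM+HBO. It had 8.48, 6.54, 6.70 and 5.21 CPM in BLM 1 to 4 and 3.57, 4.55 and 4.13 CPM in BLM+HBO 1 to 3, all below BLM, with a log2 fold change of -0.72 (SE 0.23, edgeR's adjusted P = 0.423).

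Dubr, an RNA known from muscle cell differentiation, was the most abundant member whose groups did not overlap. It had 27.5, 27.4, 27.4 and 29.3 CPM in BLM 1 to 4 and 36.7, 32.7 and 34.0 CPM in BLM+HBO 1 to 3. The change was small and regular, with a log2 fold change of 0.31 (SE 0.10, edgeR's adjusted P = 0.423), below the fold threshold of 1.5. Without BLM+HBO 1 its P was above 0.05.

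A pair of members beside Hes1, a Notch target that holds cells undifferentiated, was higher with all 7 mice. The pair lies on opposite strands of chromosome 16, 411 bases apart. 9030404E10Rik had 2.86, 1.80, 4.01 and 4.48 CPM in BLM 1 to 4 and 5.59, 6.61 and 7.01 CPM in BLM+HBO 1 to 3, without overlap (log2 fold change 0.96, SE 0.31, edgeR's adjusted P = 0.423). 4632428C04Rik had 3.08, 2.65, 6.04 and 7.16 CPM in BLM 1 to 4 and 5.86, 9.43 and 12.8 CPM in BLM+HBO 1 to 3. Its groups overlapped (log2 fold change 0.99, SE 0.39, edgeR's adjusted P = 0.440), and its P rose above 0.05 when any of BLM 1, BLM 2, BLM+HBO 2 and BLM+HBO 3 was left out. The log2 fold change of Hes1 was 0.38 (SE 0.20), at an unadjusted P above 0.05.

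The microRNA host A230057D06Rik had 2.26, 3.66, 6.20 and 4.16 CPM in BLM 1 to 4 and 8.94, 6.03 and 10.5 CPM in BLM+HBO 1 to 3. BLM 3 was above BLM+HBO 2, and the log2 fold change was 1.06 (SE 0.33, edgeR's adjusted P = 0.423). Mirt1, an RNA named for its rise after myocardial infarction, had 2.04, 2.198, 4.34 and 4.90 CPM in BLM 1 to 4 and 9.85, 5.50 and 4.65 CPM in BLM+HBO 1 to 3. The groups overlapped through BLM+HBO 3 (log2 fold change 0.98, SE 0.39, edgeR's adjusted P = 0.441). The P of Mirt1 rose above 0.05 without BLM 1, BLM 2 or BLM+HBO 1, and Mirt1 shares 1008 exon bases with a gene on the opposite strand.

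Of the 12 heart muscle marker genes, 11 were higher in BLM+HBO at the thresholds, and none was at 0. Their summed level was 75.2, 151, 120 and 207 CPM in BLM 1 to 4 and 762, 601 and 177 CPM in BLM+HBO 1 to 3, a range that overlapped through BLM+HBO 3. The part of heart tissue in the values of Mirt1 was not tested. Carmn and Bvht, RNAs of cardiac and smooth muscle lineages on chromosome 18, did not pass the test. Carmn averaged 1.69 ± 0.434 CPM in BLM (SD, n = 4), against 2.46 ± 0.604 CPM in BLM+HBO (SD, n = 3), and Bvht 16.9 ± 2.48 CPM (SD, n = 4), against 18.1 ± 3.29 CPM (SD, n = 3).

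Several other members higher at the thresholds overlap each other or a gene on the opposite strand. At the default settings of featureCounts, reads on the shared bases are left out, which would leave the counts to the other bases, and strand is not used. Gm44226 and 4833403J16Rik, beside the lymphocyte survival gene Gimap5, share 649 bases (log2 fold changes 0.81, SE 0.30, and 0.86, SE 0.33). AI480526 and 4932422M17Rik, at the start of the histone methyltransferase gene Setd1b, share 1622 bases (0.78, SE 0.33, and 0.77, SE 0.34). AI480526 also shares 1525 bases with the member Gm38102, so 3147 of its 4725 exon bases are shared. For Gm44226, 4833403J16Rik, AI480526 and 4932422M17Rik, the P was above 0.05 once 1 of several mice was left out. Of the 29 members at an unadjusted P below 0.05, 11 share exon bases with another gene.

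Without the 43 members that share exon bases, 12 members were higher and 4 lower, where 3.40% and 2.89% of all genes tested were. The remaining higher members at the thresholds included 4933406B17Rik, Gm16046, Gm49767, D030018L15Rik, Gm43597, Gm14221, C230072F16Rik and 4930516B21Rik, with log2 fold changes from 0.60 to 1.17. 4933406B17Rik ranged from 1.80 to 4.17 CPM in BLM and from 3.93 to 7.35 CPM in BLM+HBO. Gm16046 ranged from 1.43 to 1.98 CPM in BLM and from 2.58 to 3.34 CPM in BLM+HBO, without overlap.

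**Figure D5:**
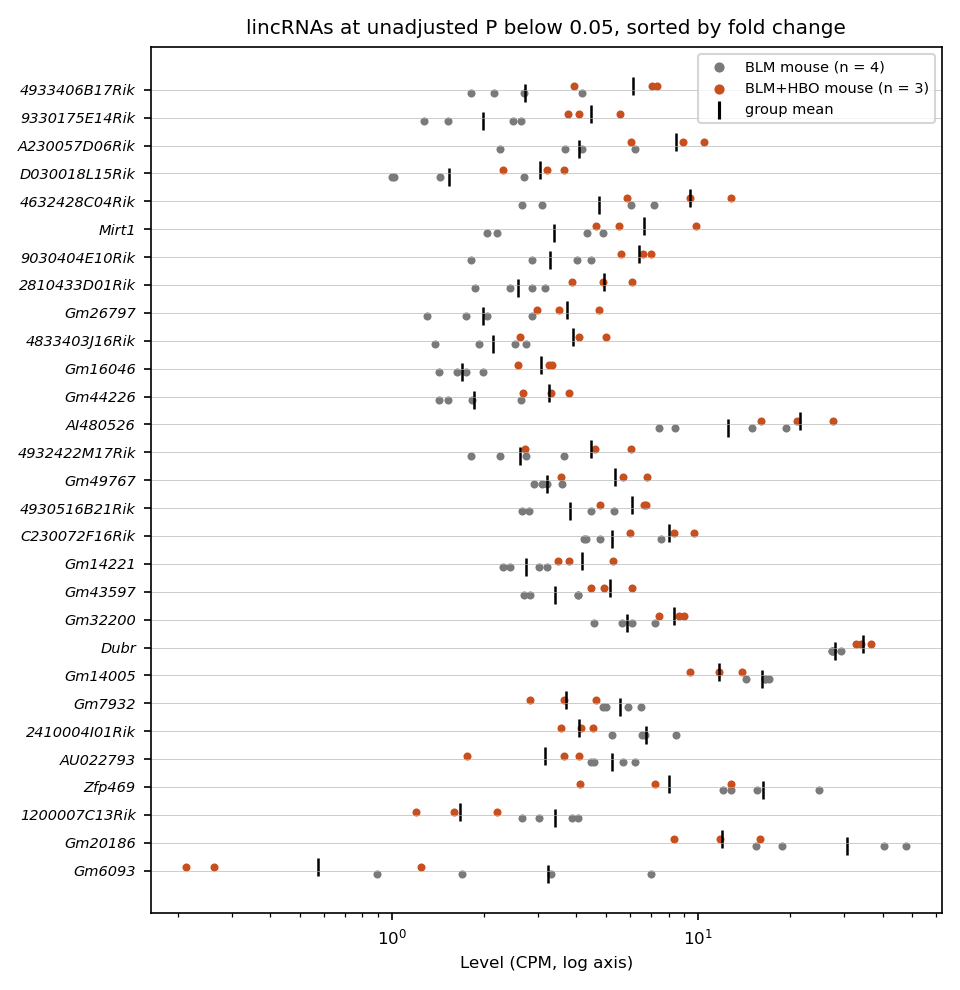
CPM (x axis, log scale) of the 29 lincRNAs at an unadjusted edgeR P below 0.05 in each BLM mouse (grey) and BLM+HBO mouse (orange), with group means as black ticks, sorted by fold change. Rows from 4933406B17Rik down to Dubr have the higher mean in BLM+HBO and rows from Gm14005 down to Gm6093 the lower one.

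Gm14005, the RNA known as Morrbid that controls the life span of short-lived myeloid cells and represses the neighbouring death gene Bcl2l11, was among the 8 members with a lower level at an unadjusted P below 0.05 and did not pass the fold threshold. It had 17.1, 14.4, 16.5 and 16.5 CPM in BLM 1 to 4 and 9.42, 13.9 and 11.7 CPM in BLM+HBO 1 to 3. All BLM+HBO mice were below all BLM mice, and the log2 fold change was -0.46 (SE 0.17, edgeR's adjusted P = 0.426). Without BLM+HBO 1 its P was above 0.05. Bcl2l11 had a log2 fold change of 0.02 (SE 0.13). Of the 7 monocyte and macrophage marker genes, 3 were lower at the thresholds and none was at 0. Their summed level was 1090 to 1578 CPM in BLM and 677 to 1074 CPM in BLM+HBO. The 3 were Adgre1, C1qa and C1qb, while Ly6c2 (log2 fold change 0.47, SE 0.40) and Ccr2 (0.05, SE 0.27) were above 0. Of 5 neutrophil marker genes tested, 0 passed both thresholds. The neutrophil list summed to 142 to 210 CPM in BLM and 87.4 to 469 CPM in BLM+HBO, with overlap. The part of these cell types in the value of Gm14005 was not tested.

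Zfp469, whose human counterpart is linked to collagen organization and thin corneas, is typed as a lincRNA in GENCODE vM21 but as protein-coding in RefSeq. It had 24.8, 15.6, 12.02 and 12.8 CPM in BLM 1 to 4 and 4.10, 12.8 and 7.20 CPM in BLM+HBO 1 to 3. The groups overlapped through BLM+HBO 2, and the log2 fold change was -1.02 (SE 0.38, edgeR's adjusted P = 0.436). Its P rose above 0.05 without BLM 1 (log2 fold change -0.75), BLM+HBO 1 (-0.71) or BLM+HBO 3 (-0.95), and the log2 fold change was -1.52 without BLM+HBO 2. Of the 7 fibroblast marker genes, 5 were lower and 1 was higher at the thresholds and none was at 0, with summed levels of 5921 to 9751 CPM in BLM and 1957 to 6371 CPM in BLM+HBO. The part of fibroblasts in the value of Zfp469 was not tested.

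1200007C13Rik (chr2:167827693-167833646, minus strand) had 3.86, 2.65, 3.02 and 4.05 CPM in BLM 1 to 4 and 1.60, 2.202 and 1.2 CPM in BLM+HBO 1 to 3. The groups did not overlap (log2 fold change -1.03, SE 0.31, edgeR's adjusted P = 0.423). Its nearest protein-coding gene, the phosphatase gene Ptpn1, lies 98411 bases away. Ptpn1 had a log2 fold change of -0.25 (SE 0.11), at an unadjusted P below 0.05. AU022793, whose P rose above 0.05 when any mouse but BLM 2 and BLM+HBO 2 was left out, ranged from 4.45 to 6.22 CPM in BLM and from 1.76 to 4.07 CPM in BLM+HBO, and its neighbour Lrp12 had a log2 fold change of -0.54 (SE 0.20), also at an unadjusted P below 0.05.

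The lower members with the largest changes had uneven levels among the BLM mice. Gm20186, opposite the RNA-binding protein gene Lsm8, had 47.7, 40.3, 15.5 and 18.9 CPM in BLM 1 to 4 and 11.8, 15.9 and 8.33 CPM in BLM+HBO 1 to 3. Its log2 fold change was -1.35 (SE 0.40, edgeR's adjusted P = 0.423), and 855 of its exon bases are shared with Gm26809 on the opposite strand. Gm6093 had 6.99, 1.69, 3.29 and 0.895 CPM in BLM 1 to 4 and 0.213, 1.24 and 0.263 CPM in BLM+HBO 1 to 3. Its log2 fold change was -2.49 (SE 0.82, edgeR's adjusted P = 0.423), and it had the widest range of all members, 32.8-fold. Its log2 fold change was -1.77 without BLM 1 and -3.71 without BLM+HBO 2.

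Members that hold small RNAs lay on different sides of 0. By coordinates, 12 members span an annotated microRNA, and all 12 had a log2 fold change above 0 (median 0.35), beside 76.0% of all members. Of these 12, only A230057D06Rik passed the thresholds. Over a list of named microRNA hosts, members or not, 4 of the 9 tested were above 0, with a median of -0.05. In that list 0 were higher at the thresholds and 1, Dnm3os, was lower (log2 fold change -0.86, SE 0.37). Dleu2 (log2 fold change 0.58, SE 0.18) had an unadjusted edgeR P below 0.05 but fell just short of the fold threshold. 6720427I07Rik, the let-7 host shown above, averaged 9.17 ± 2.19 CPM in BLM (SD, n = 4), against 11.2 ± 2.33 CPM in BLM+HBO (SD, n = 3) (log2 fold change 0.29, SE 0.23). Mir17hg averaged 5.91 ± 1.85 CPM (SD, n = 4), against 7.42 ± 1.13 CPM (SD, n = 3), and Mir142hg, host of a microRNA of blood cells, 6.48 ± 3.19 CPM (SD, n = 4), against 8.30 ± 1.33 CPM (SD, n = 3). These are levels of the host transcripts, and mature microRNAs were not measured.

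Ftx, an X-linked host of miR-374b and miR-421 that takes part in X inactivation, was tighter. It had 6.44, 5.69, 5.98 and 6.79 CPM in BLM 1 to 4 and 8.04, 7.66 and 7.99 CPM in BLM+HBO 1 to 3, without overlap. The log2 fold change was 0.34 (SE 0.17, edgeR's adjusted P = 0.515). Jpx, its neighbour in the same region, averaged 2.50 ± 0.808 CPM in BLM (SD, n = 4), against 3.14 ± 0.422 CPM in BLM+HBO (SD, n = 3).

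The 4 members that span a small nucleolar RNA, Snhg18, Snhg6, Epb41l4aos and Snhg12, had a log2 fold change below 0 (median -0.24), beside 44 of all 183 members, and none passed the test. Hosts of this kind are spliced to release RNAs that guide modification of ribosomal RNA. Over the whole list of such hosts, members or not, 5 of the 15 tested were above 0, with a median of -0.07, and the fifth member in it, Snhg20, stood at 0.22 (SE 0.19). Snhg18 averaged 31.0 ± 3.90 CPM in BLM (SD, n = 4), against 25.8 ± 4.89 CPM in BLM+HBO (SD, n = 3), and Snhg6 averaged 20.1 ± 5.21 CPM (SD, n = 4), against 15.98 ± 2.48 CPM (SD, n = 3). Of 14 genes of microRNA and small nucleolar RNA processing, 0 passed both thresholds, and 1, the nucleolar protein gene Nhp2, had an unadjusted edgeR P below 0.05 (log2 fold change -0.35, SE 0.13). None of 10 nonsense-mediated decay factors and none of 8 Polycomb repressive complex 2 genes had an unadjusted edgeR P below 0.05.

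Pvt1, which lies beside Myc, averaged 3.79 ± 0.730 CPM in BLM (SD, n = 4), against 4.25 ± 1.68 CPM in BLM+HBO (SD, n = 3), with a log2 fold change of 0.16 (SE 0.30). Myc, named after its values were seen, had a log2 fold change of -0.85 (SE 0.22), at an unadjusted P below 0.05.

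Over 157 members whose nearest protein-coding gene was tested, the log2 fold changes of member and neighbour had a Pearson r of 0.27 and a Spearman rho of 0.32 across genes, which are not independent replicates and share the same 7 libraries. Of these neighbours, 14 (8.92%) had an unadjusted edgeR P below 0.05, where 10.9% of all protein-coding genes tested did. For the 25 members at P below 0.05 with a tested neighbour, 2 neighbours (8.0%) passed, Ptpn1 and Lrp12. The 29 members that start within 1000 bases of a coding gene on the opposite strand had a median log2 fold change of 0.08, and the 154 others 0.27.

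The promoter windows of RefSeq, 250 bases before to 50 after a start, were searched for ACGTG and GCGTG, the cores of the hypoxia response element bound by HIF, on both strands. A window was held for 103 members. ACGTG was present for 32% of these members and 21.8% of all genes with a window, and GCGTG for 28.2% and 35.2%. The E-box CACGTG, which contains ACGTG, was present for 11.7% and 8.09%, and TATAA for 23.3% and 28.0%. A match is a description of letters and no measured binding. The windows of 3 members whose groups did not overlap are shown as examples that hold such a core, with ACGTG or GCGTG on either strand in capitals. They lie at chr8:94435054-94435353, chr9:122310879-122311178 and chr16:50732724-50733023 on GRCm38.p6, and all 3 are read from the minus strand.
9330175E14Rik: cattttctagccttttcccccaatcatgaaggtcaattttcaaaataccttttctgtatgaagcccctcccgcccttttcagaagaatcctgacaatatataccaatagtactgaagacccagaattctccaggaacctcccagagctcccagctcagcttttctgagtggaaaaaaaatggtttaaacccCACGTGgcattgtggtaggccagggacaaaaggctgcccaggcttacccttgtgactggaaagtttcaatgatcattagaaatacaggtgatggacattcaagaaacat
Gm26797: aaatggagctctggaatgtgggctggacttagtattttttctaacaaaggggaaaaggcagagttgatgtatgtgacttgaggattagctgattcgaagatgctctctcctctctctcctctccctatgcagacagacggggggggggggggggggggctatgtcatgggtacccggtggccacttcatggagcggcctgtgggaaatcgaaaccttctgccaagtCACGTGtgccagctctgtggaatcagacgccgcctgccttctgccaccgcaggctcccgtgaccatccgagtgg
Dubr: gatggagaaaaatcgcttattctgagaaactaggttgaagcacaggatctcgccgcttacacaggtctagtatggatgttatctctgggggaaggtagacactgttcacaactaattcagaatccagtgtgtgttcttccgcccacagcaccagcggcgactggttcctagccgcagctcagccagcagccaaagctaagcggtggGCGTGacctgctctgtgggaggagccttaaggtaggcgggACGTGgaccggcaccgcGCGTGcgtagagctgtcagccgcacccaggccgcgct
The windows of 9330175E14Rik and Gm26797 hold CACGTG, and that of Dubr holds ACGTG 1 time and GCGTG 2 times. Both 9330175E14Rik and Gm26797 reached 2 CPM only in BLM+HBO. Of the members with a window, 4933406B17Rik, A230057D06Rik, 4632428C04Rik, Mirt1 and C230072F16Rik were higher and hold neither core in it. Gm32200, which like Dubr had groups without overlap and a change below the fold threshold, also holds neither core. Among the lower members, 2410004I01Rik, whose groups did not overlap, holds GCGTG in its window, and Gm6093 holds neither core. Gm7932, with a lower level that did not pass the fold threshold and groups without overlap, holds neither core.

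Markers of B and NK cells also differed between the groups in these libraries. Of the 6 B cell marker genes, 6 were higher at the thresholds, with summed levels of 54.9 to 107.52 CPM in BLM and 107.54 to 226 CPM in BLM+HBO, which did not overlap but nearly met. Of the 6 NK cell marker genes, 5 were higher, with 8.92 to 27.5 CPM in BLM and 25.3 to 94.0 CPM in BLM+HBO. Of the 7 T cell marker genes 1 was higher, and of 5 plasma cell genes tested 1 was lower, and the summed levels of both lists overlapped. None of these genes was at 0, and their part in the values of AW112010, Mir142hg and the members beside Gimap5 was not tested.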

How the data were processed

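RNA of right lung lobes was sequenced from 4 BLM and 3 BLM+HBO mice, and groups and replicate numbers came from the sample records. The deposited values were raw counts per gene, which the authors obtained by trimming with Trim Galore, alignment to GRCm38 with HISAT2 2.2.0 and counting with featureCounts 2.2.0. The tool versions are those of the submitters' processing notes (the Supplementary methods name another featureCounts release), and the annotation release is not given in the sources used here. Default settings of featureCounts do not use strand and leave out reads that overlap several genes. The deposited table held 55401 genes, and 55141 had a type in GENCODE vM21; 174 of 183 members had the same identifier version.

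Low genes were dropped by filterByExpr, at 10 reads as minimum count and 15 as minimum total, and the rest was normalized by TMM (factors 0.964 to 1.036) and tested with edgeR 4.0.16 (quasi-likelihood test, R 4.3.3) on all genes, with BLM as the reference and Benjamini-Hochberg adjustment over all genes. The common biological coefficient of variation was 0.222. Levels are CPM after TMM, while membership used library totals. DESeq2 1.42.0, limma 3.58.1, other factors and filters, a replicate block and leaving out each mouse were alternatives. The tests were tested on simulated data. No pair of libraries agreed within sampling noise, with a chi-square per gene of at least 22.1 within a group and a lowest value of 13.0 between groups, for BLM 4 and BLM+HBO 2. Nothing says more of the mice than their labels. The P-values set the difference between groups against the spread between these mice, which edgeR estimates with the help of all genes.

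Named members were those at an unadjusted P below 0.05 (up to 12 a direction by P), the 10 most abundant, the 3 on each side of the threshold and members of lists by role; any other member was named after its values were seen. The members and lists were chosen with earlier results of these data known.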

Additional observations from a re-analysis of the deposited data

Results flagged for a closer look

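Of 53 sets of 4 BLM values examined (51 named lincRNAs, the summed share and the median deviation), 1 was flagged because a single mouse stood apart from the others, and chance flags about 1 in 20. Dubr had 29.3 CPM in BLM 4, against 27.4 to 27.5 CPM in the other 3 BLM mice. The gap is small in size, and BLM 4 was still below the lowest BLM+HBO mouse at 32.7 CPM.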

How the results depend on the processing

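The median of 0.25 stayed above 0 under every alternative run, and more members were higher than lower (19 and 6) under each except a fold change above 2, where 3 were higher and 4 lower. At P below 0.01, 3 were higher and 2 lower (0.916% and 0.910% of all genes). With a mean of at least 1 CPM, 303 lincRNAs were chosen, 27 higher and 12 lower. With at least 5 CPM, 67 were chosen, 4 higher and 3 lower. In that same fit 3.40% of all genes tested were higher and 2.89% lower. Without members that share exon bases, 12 were higher, a choice made after seeing the data, as were the choices by 1 group's mean and the share without Neat1. At adjusted P below 0.05, DESeq2 called 1 member, Gm20186, and edgeR with no filter on low counts 2, Gm20186 and Gm6093. The shares of all genes called in those fits are not given here.

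Leaving out each mouse in turn gave 9 to 27 higher and 4 to 10 lower members. Of all genes tested, 1.93% to 5.29% were higher and 1.76% to 5.41% lower in those fits. Members at adjusted P below 0.05 were 0 to 1, medians 0.15 to 0.31 and log2 share ratios 0.16 to 0.40. Omission of BLM 1, BLM 2 or BLM+HBO 3 left 10, 9 and 11 higher members, where 2.34%, 2.56% and 2.87% of all genes were. Without BLM+HBO 2, 10 members were lower (5.41% of all genes). Among the members, 3300005D01Rik alone had an edgeR adjusted P below 0.05 (0.0316) in that fit. The share of all genes that passed adjustment there is not given here. The cause of these changes was not tested.

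With the replicate block, 19 members were higher and 6 lower, where 3.85% and 3.36% of all genes tested were. In that fit 0 members passed adjustment, and the median was 0.23. Of the 19 higher members 16, and of the 6 lower members 5, were called in both fits. Same-numbered mice correlated at -0.008, -0.066 and 0.161 in their deviations, so the numbers were not treated as pairs. Gm42418 and Gm26917 were not members, so leaving them out gave no other value. With library totals alone the median of all genes was 0.06 and that of the members 0.30. At 2 to 5 CPM a member rests on few reads per mouse, which limits small differences.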
